A study of Mus musculus with 6 samples.

Results

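The chemokine receptors described here are 9 mouse genes, Ccr1, Ccr2, Ccr3, Ccr7, Ccrl2, Cx3cr1, Cxcr2, Cxcr4 and Ackr3, picked by symbol from a deposited table of 55736 genes, in which each symbol stood on 1 row. Their transcripts were followed in bone marrow-derived macrophages, the macrophages that marrow cells give rise to in culture, of wild-type (WT) mice. There were 3 control libraries and 3 libraries of cells given LPS at 200 ng/ml, all at 24 h, and the study as a whole asks about CCL7, macrophage polarization and arthritis. LPS is a glycolipid of the Gram-negative outer membrane that is sensed through TLR4. The LPS titles carry a further number whose meaning the labels do not give, and nothing says whether the libraries of a group came from separate animals or cultures. Values are TPM, transcript abundances per length scaled to the same total in each library, so levels of different genes can be set side by side but the read depth behind them is unknown.

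Chemokine receptors are seven-helix membrane receptors that steer leukocytes along gradients of chemokines. Most signal through inhibitory G proteins, and receptor kinases, arrestins and RGS proteins then end the signal. The CC receptors Ccr1, Ccr2 and Ccr3 are known to bind CCL7 among other ligands, Cxcr4 binds CXCL12, Cx3cr1 binds fractalkine and Cxcr2 binds the neutrophil-attracting CXC chemokines. Ccrl2 and Ackr3 are atypical receptors that bind a ligand without the usual G protein signal, chemerin for Ccrl2 and CXCL12 for Ackr3.

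After LPS the receptor transcripts parted. Ccr1 and Ccrl2 were about 3-fold higher, whereas Cxcr4, Ccr2 and Cx3cr1 were between 14.4-fold and 34.7-fold lower and Ccr3 was 2.19-fold lower. Cxcr4 was by far the most abundant of the 9 in control macrophages, and Ccr1 took that place in LPS-treated macrophages. The remaining 3 genes stayed under 1 TPM in every library, with Ackr3 listed at 0 in all of them. Only the 6 genes that reached 1 TPM in at least 3 of the 6 libraries entered the main test, which was limma on log2(TPM + 1) over 12440 genes. Of these 6 receptors limma called 2 higher and 4 lower at a Benjamini-Hochberg adjusted p under 0.05. Ccr2 was among the 4, having entered the test through the control libraries alone, so that it had to differ. Among all tested genes 76.1% were called, 16.3% as higher and 59.8% as lower in LPS libraries, so being called, or being called lower, did not by itself set a receptor apart.

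**Figure D1:**
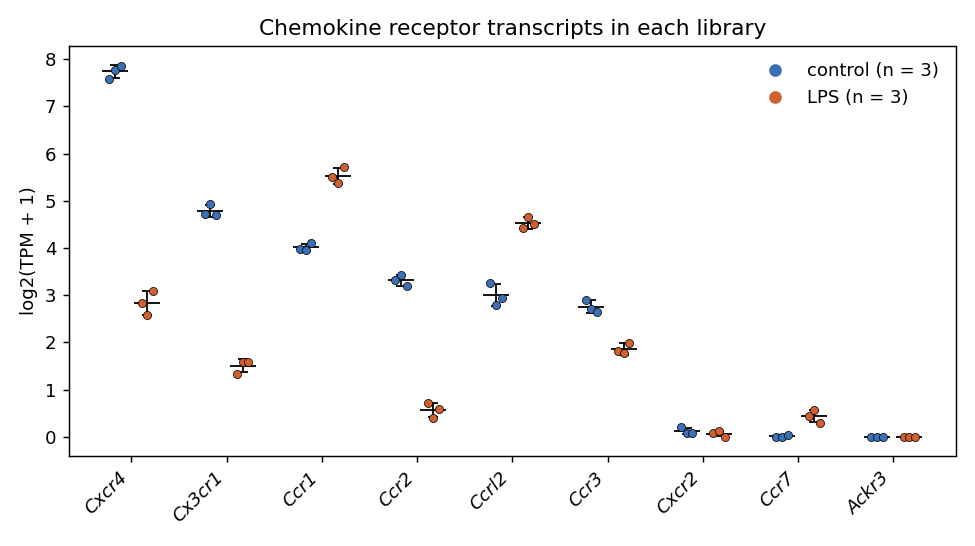
Levels of the 9 receptor transcripts in each library as log2(TPM + 1), ordered by control level; each point is a library, and the horizontal and vertical lines give the mean and SD of 3 libraries. The points of Cxcr4 lie highest without LPS and fall to between 4.94 and 7.44 TPM after LPS, while those of Ccr1 and Ccrl2 rise.

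The libraries themselves bear on how such changes read. Saa3 and Fth1 together held 2.02% of TPM without LPS and 17.6% with LPS, and the total of TPM is fixed. On the log2(TPM + 1) scale, the median change over all 12440 genes was −0.44. With Saa3 and Fth1 left out and the totals set equal again, the median was still −0.22. Median-of-ratios scaling of all genes brought the median to 0.00 and called 33.5% of genes higher and 33.6% lower. The 6 tested receptors kept their directions and calls under median-of-ratios scaling, under the other alternatives tried and without any single library. Groups did not overlap in any of the 6, as in 78.6% of all tested genes. For Ccr2, under 1 TPM in every LPS library and tested through the control libraries alone, the groups could not overlap. Its kept direction adds no support either. All 10 macrophage markers examined were above 1 TPM, and 7 were called higher and 3 lower with LPS. Lyz2 had 21394 and 29245 TPM and Adgre1, which encodes F4/80, 902 and 2278 TPM without and with LPS, while Cd68 had 2376 and 1296 TPM, Csf1r 1675 and 1251 TPM and Mertk 80.8 and 61.0 TPM. Markers of lymphoid and mast cells were low: those of T and NK cells summed to at most 3.46 TPM, of B cells to at most 1.12 TPM and of mast cells and basophils to at most 0.32 TPM in any library. Mitochondrially encoded mRNAs summed to between 47385 and 51815 TPM without LPS and between 20859 and 22140 TPM with LPS, and ribosomal protein genes to between 74729 and 83734 and between 46687 and 50782 TPM, and their part in the receptor changes was not tested. In bulk RNA, fewer cells that carry a transcript and less of it per cell cannot be told apart.

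**Figure D2:**
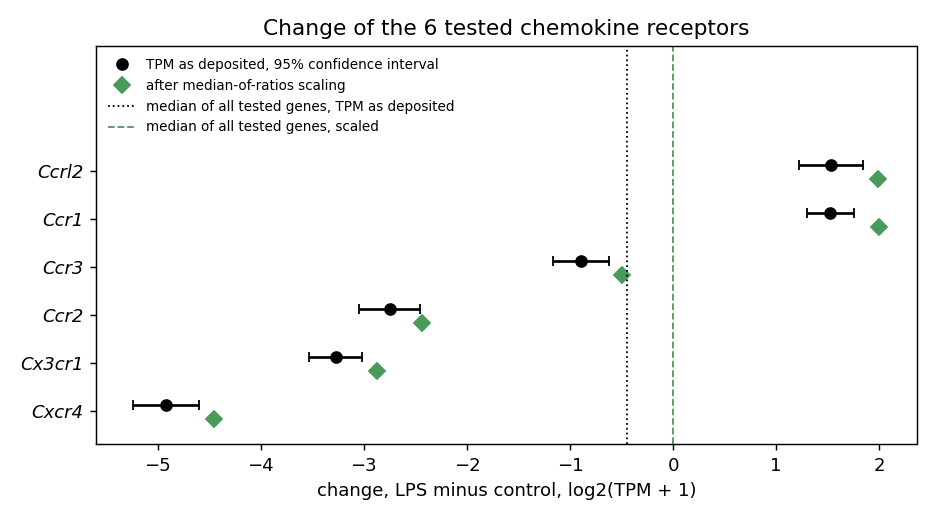
Change of the 6 tested receptors, LPS minus control, on the log2(TPM + 1) scale; black points are TPM as deposited with 95% confidence intervals, green diamonds are after median-of-ratios scaling, and vertical lines mark the median change of all tested genes. Ccr3, at −0.89, lies nearest to the median of all genes, and no receptor changes sign with the scaling.

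Cxcr4, the receptor for CXCL12 that holds leukocytes and their precursors in the marrow, had 190, 218 and 232 TPM without LPS and 6.09, 4.94 and 7.44 TPM with LPS. Every control library was thus far above every LPS library. The means were 213 ± 21.3 and 6.16 ± 1.25 TPM (SD, n = 3 each), 34.7-fold lower after LPS. On the log2(TPM + 1) scale the change was −4.91 (SE 0.14, 95% confidence interval −5.23 to −4.59, limma adjusted p = 1.00e-07). Only 0.394% of tested genes fell further. The other receptor for CXCL12, the scavenging receptor Ackr3, was listed at 0 in all 6 libraries. The transcript of CXCL12 itself was low throughout, with 0.28, 0.11 and 0.42 TPM without LPS and 0.38, 0.16 and 0.14 TPM with LPS. Cxcl12 was under the limit of the main test, and the fit of all genes above 0 did not call it (adjusted p = 0.775). Stromal cells are a main source of CXCL12 in marrow, and the 10 stromal and endothelial markers summed to between 6.96 and 9.05 TPM without LPS and between 9.55 and 10.6 TPM with LPS.

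Cx3cr1, which marks patrolling monocytes and many tissue macrophages, had 25.3, 29.4 and 24.8 TPM without LPS and 1.53, 2.01 and 1.99 TPM with LPS. The groups were far apart, with little spread within either. Cx3cr1 was 14.4-fold lower, at a mean of 26.5 ± 2.50 against 1.84 ± 0.272 TPM (SD, n = 3 each). The change was −3.27 (SE 0.11, 95% confidence interval −3.53 to −3.01, limma adjusted p = 2.48e-07), with 1.93% of tested genes falling further. Its ligand gene Cx3cl1 was below the limit of the main test, with 0.79, 0.94 and 0.91 TPM without LPS and 0.06, 0.11 and 0.06 TPM with LPS. In the fit of all genes above 0 it was lower after LPS (change −0.80, SE 0.06, adjusted p = 0.000148). The annotated span of Cx3cr1 is long and its exons touch the spans of Wdr48 and of the antisense gene Gm33858 on the other strand. Wdr48 had 33.8 TPM without LPS and 18.2 TPM with LPS, and Gm33858 had 0.437 and 0.0467 TPM. Whether counting used strand was not stated, so reads from those overlaps cannot be told apart.

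The receptors for CCL7 did not move together. Ccr1, through which CCL3, CCL5 and CCL7 attract monocytes and neutrophils, had 14.8, 14.4 and 16.2 TPM without LPS and 44.4, 40.6 and 51.5 TPM with LPS. All LPS libraries lay well above all control libraries. The mean rose 3.01-fold, from 15.1 ± 0.934 to 45.5 ± 5.52 TPM (SD, n = 3 each). The change was 1.52 (SE 0.10, 95% confidence interval 1.30 to 1.75, limma adjusted p = 6.00e-06), and 4.28% of tested genes rose further. Ccr2, the receptor for CCL2 that brings inflammatory monocytes out of the marrow, had 8.92, 9.81 and 8.21 TPM without LPS and 0.64, 0.32 and 0.50 TPM with LPS. Its LPS values were all below 1 TPM, so it entered the test through the control libraries alone and had to differ once it did. The mean was 18.5-fold lower, at 8.98 ± 0.802 against 0.487 ± 0.160 TPM (SD, n = 3 each). The change was −2.75 (SE 0.13, 95% confidence interval −3.05 to −2.45, limma adjusted p = 1.11e-06), and 2.93% of tested genes fell further. Markers of monocytes, the cells for which Ccr2 is best known, summed to between 12.8 and 17.8 TPM without LPS and between 2592 and 2665 TPM with LPS. Of the 5 genes of that list, Hp had 1.01 and 1851 TPM, Ms4a4c 8.21 and 618 TPM and Ly6c2 0.113 and 159 TPM without and with LPS. The remaining pair was lower in the mean with LPS, F13a1 at 4.84 and 3.58 TPM and Plac8 at 1.13 and 0.79 TPM. F13a1 was not called higher or lower, and Plac8 was under the limit of the main test. The part of these markers in the result was not tested.

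Ccr3, best known from eosinophils as the eotaxin receptor, had 6.48, 5.53 and 5.23 TPM without LPS and 2.50, 2.41 and 2.98 TPM with LPS. The groups stood apart, but by less than for the other 5 tested receptors. The means were 5.75 ± 0.653 and 2.63 ± 0.306 TPM (SD, n = 3 each). Its change of −0.89 (SE 0.12, 95% confidence interval −1.17 to −0.62, limma adjusted p = 0.000287) was −0.45 relative to the median of all tested genes, and 25.8% of tested genes fell further. The size of the fall depended on the scale, with −0.50 for median-of-ratios scaling (limma adjusted p = 0.00575) and −0.29 for quantile normalization (limma adjusted p = 0.0477). All 8 eosinophil markers were under 1 TPM in every library and summed to between 0.75 and 1.61 TPM without LPS and at most 0.31 TPM with LPS. Prg3 and Ear1 were at 0 throughout, and Siglecf held most of the control sum with 0.82 TPM.

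Within each library a plain ratio of these receptors can be read without regard to the total. The ratio of Ccr1 to Ccr2 was 1.66, 1.47 and 1.97 without LPS and 69.4, 127 and 103 in LPS libraries. On the log2 scale with 1 TPM added to each gene, the mean ratio rose from 0.69 ± 0.19 to 4.97 ± 0.17 (SD, n = 3 each; exact two-sided permutation p = 0.1, the smallest that 3 against 3 libraries allow). The added 1 TPM makes this version depend on the total and shrinks it, as Ccr2 was under 1 TPM in LPS libraries. The ratio of Ccr1 to Ccr3 was 2.28, 2.61 and 3.10 without LPS and 17.8, 16.9 and 17.3 in LPS libraries, with no overlap (exact two-sided permutation p = 0.1 on that log2 scale). Ccr1 rose and Ccr2 and Ccr3 fell, each without overlap, so neither ratio could overlap. The p-values of the ratios therefore add no support to the changes of the single genes. For Cxcr4 against Ackr3 no ratio of levels can be given, since Ackr3 is listed at 0.

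Ccr1, Ccr3 and Ccr2 lie close together on chromosome 9 (GRCm38, GENCODE M21). Ccr1 lies at 123962124 to 123968692 on the minus strand, Ccr3 at 124021972 to 124031689 and Ccr2 at 124101950 to 124113557, both on the plus strand. From the start of Ccr1 to the end of Ccr2 is 151 kb. In this stretch the transcript that rose, Ccr1, has transcripts that fell next to it. Ccr1l1, a close relative of Ccr1 between Ccr1 and Ccr3, had 0.99, 0.94 and 0.80 TPM without LPS and 0.18, 0.18 and 0.19 TPM with LPS. On the other side of Ccr1 the nearest gene was Xcr1, with 0.0467 TPM without LPS and 0.22 TPM with LPS, called higher in the limma fit of all genes above 0 (adjusted p = 0.0241). Ccr9, at the far end and with an annotated span that contains that of Lztfl1, had 0.0667 and 0.31 TPM and was not called there (adjusted p = 0.119). On the Ccr9 side of Ccr1, outside those 151 kb, lie Lztfl1 and Fyco1, which are no receptors. They had 10.4 and 10.1 TPM without LPS and 10.7 and 11.2 TPM with LPS, and neither was called by limma (adjusted p = 0.709 and 0.177). Little of the sequence of Ccr1, Ccr3 and Ccr2 was shared with other genes. Of the 31-base words of their transcripts, 0.642% for Ccr1, 0.524% for Ccr3 and 3.41% for Ccr2 occurred in transcripts of another gene.

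**Figure D3:**
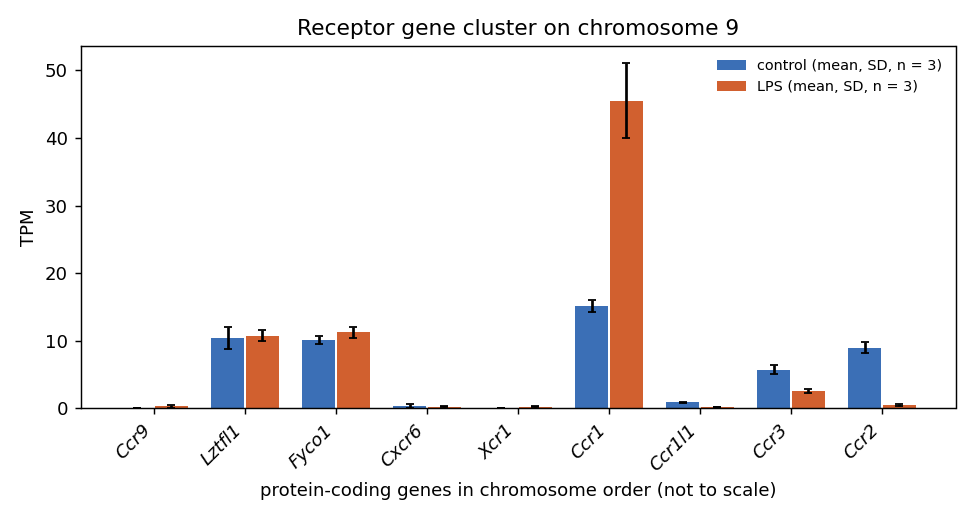
Mean TPM of the 9 protein-coding genes from Ccr9 to Ccr2 on chromosome 9 in chromosome order, in control and LPS libraries; error bars are the SD of 3 libraries and the axis starts at 0. Ccr1 is the only receptor gene above 1 TPM in this stretch whose LPS bar is the higher.

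Ccrl2, which binds chemerin and holds it at the cell surface, had 8.57, 5.95 and 6.71 TPM without LPS and 20.5, 24.3 and 21.7 TPM with LPS. Even the highest control library was far below the lowest LPS library. The mean rose 3.13-fold, from 7.08 ± 1.35 to 22.2 ± 1.96 TPM (SD, n = 3 each). The change was 1.53 (SE 0.13, 95% confidence interval 1.22 to 1.84, limma adjusted p = 2.97e-05), almost the same as that of Ccr1, and 4.26% of tested genes rose further. Ccrl2 lies on chromosome 9 too (111054486 to 111057519, minus strand), 12.9 Mb from Ccr1. Of the remaining receptors, Cx3cr1 lies on chromosome 9 at 119901616 to 120069879 (minus strand) and Ccr7 on chromosome 11 at 99144196 to 99155077 (minus). Chromosome 1 holds Cxcr2 at 74153989 to 74161246 (plus), Ackr3 at 90203980 to 90216751 (plus) and Cxcr4 at 128588199 to 128592293 (minus). Its ligand gene Rarres2, which encodes chemerin, was at or below 0.14 TPM in every library, and the fit of all genes above 0 did not call it (adjusted p = 0.862).

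Windows of 300 bases around the start sites, from 250 bases before to 50 after, were taken from RefSeq (GRCm38.p6) for 8 of the 9 receptors. Each was searched on both strands for 5 short motifs: the NF-kB pattern (GGGA, then NNNN, then CC), the interferon-response pattern (GAAA on either side of NN), the AP-1 site TGANTCA, the PU.1 core GAGGAAG and the hypoxia-response core ACGTG. Windows are shown for the pair that rose and for Ccr3, which fell and holds an NF-kB match. The window of Cxcr4, which fell most and holds no match, is shown too. Matches are in capitals, printed 5′ to 3′ along the gene.
Ccrl2: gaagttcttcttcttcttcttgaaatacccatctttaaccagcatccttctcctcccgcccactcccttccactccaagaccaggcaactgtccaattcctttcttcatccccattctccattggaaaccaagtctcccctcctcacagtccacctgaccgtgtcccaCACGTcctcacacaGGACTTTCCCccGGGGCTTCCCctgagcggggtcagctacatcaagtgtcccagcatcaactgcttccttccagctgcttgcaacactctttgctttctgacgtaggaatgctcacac
Ccr1: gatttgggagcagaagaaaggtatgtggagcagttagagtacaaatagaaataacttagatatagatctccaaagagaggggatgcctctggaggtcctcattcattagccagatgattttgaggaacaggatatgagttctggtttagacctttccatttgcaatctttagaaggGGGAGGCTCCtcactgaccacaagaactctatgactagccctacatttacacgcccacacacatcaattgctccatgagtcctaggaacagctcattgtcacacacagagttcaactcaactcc
Ccr3: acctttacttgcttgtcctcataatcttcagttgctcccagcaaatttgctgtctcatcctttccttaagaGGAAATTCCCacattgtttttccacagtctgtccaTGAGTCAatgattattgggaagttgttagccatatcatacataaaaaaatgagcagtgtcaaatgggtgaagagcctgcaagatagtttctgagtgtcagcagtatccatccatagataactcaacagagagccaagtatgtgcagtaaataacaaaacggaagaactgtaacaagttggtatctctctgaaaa
Cxcr4: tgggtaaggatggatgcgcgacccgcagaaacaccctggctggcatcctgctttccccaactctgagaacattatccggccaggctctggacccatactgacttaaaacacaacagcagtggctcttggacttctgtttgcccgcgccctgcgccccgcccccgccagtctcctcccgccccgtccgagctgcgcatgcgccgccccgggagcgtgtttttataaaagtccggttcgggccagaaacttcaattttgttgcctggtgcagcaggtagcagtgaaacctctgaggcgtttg
These windows are chr9:111057469-111057768 (minus strand), chr9:123968643-123968942 (minus), chr9:124021721-124022020 (plus) and chr1:128592250-128592549 (minus).

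The Ccrl2 window holds 2 NF-kB matches, at bases 183 to 192 and 195 to 204, and a hypoxia-response match from base 169. RefSeq lists 2 further Ccrl2 starts, in whose windows the NF-kB matches do not lie. Ccr1 has 1 NF-kB match at bases 177 to 186. Ccr3 has 1 at bases 72 to 81 and an AP-1 match at bases 107 to 113. The windows of Ccr2, Cx3cr1, Cxcr2 and Ackr3 hold none of the 5 patterns. Of all 32851 RefSeq windows of this kind, 20.7% hold the NF-kB pattern, 3.44% the interferon-response pattern, 7.81% the AP-1 site, 13.6% the PU.1 core and 19.6% the hypoxia-response core. Among the tested receptors the NF-kB pattern lies in windows of Ccr1 and Ccrl2, which rose, and of Ccr3, which fell. It is absent from those of Cxcr4, Ccr2 and Cx3cr1, which fell. Any part of the pattern in these changes was not tested. A match describes the letters of the window and not a bound site.

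Ccr7 and Cxcr2 were near the lower end of the table. Ccr7, with which activated dendritic cells and lymphocytes find lymph nodes, was listed at 0, 0 and 0.03 TPM without LPS and had 0.36, 0.47 and 0.23 TPM with LPS. The LPS values lay above the control values, yet none reached 0.5 TPM. In the fit of all genes above 0 it was called higher (change 0.42, SE 0.07, adjusted p = 0.00423), where 8.85% of 23958 genes were. Its ligand genes Ccl19 and Ccl21a were at or near 0, with at most 0.10 TPM for Ccl19 and 0 for Ccl21a. The 9 dendritic cell markers summed to between 4.11 and 5.84 TPM without LPS and between 7.99 and 10.8 TPM with LPS. Of these Fscn1, which is also induced as dendritic cells mature, had 0.850 and 6.34 TPM without and with LPS. Batf3 was lower in the mean with LPS, at 3.69 and 2.66 TPM. Flt3, Zbtb46, Clec9a and Cd209a stayed under 0.5 TPM in every library. The part of these markers in the Ccr7 values was not tested.

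Cxcr2, the neutrophil receptor for CXCL1 and CXCL2, had 0.15, 0.06 and 0.06 TPM without LPS and 0.06, 0.08 and 0 TPM with LPS. The groups overlapped, and in the fit of all genes above 0 its change of −0.06 (SE 0.05, 95% confidence interval −0.18 to 0.06, adjusted p = 0.430) was not called. Other genes share 7.70% of the 31-base words of its transcripts, the highest share among the 9. Of the 12 neutrophil markers, Ly6g and Retnlg were at 0 in every library and Mpo, Elane, Ngp and Ltf stayed under 0.5 TPM. The list summed to between 67.8 and 73.3 TPM without LPS and between 3255 and 3592 TPM with LPS, of which Lcn2 alone held 3199 TPM in the mean. Csf3r had 31.3 and 109 TPM, S100a8 4.33 and 79.9 TPM and Mmp8 33.2 and 40.0 TPM without and with LPS.

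Set in order of level, the control libraries ran from Cxcr4 through Cx3cr1, Ccr1, Ccr2, Ccrl2 and Ccr3 to Cxcr2, Ccr7 and Ackr3. Ccr2 and Ccrl2 overlapped in range there, as did Ccrl2 and Ccr3 and also Ccr7 and Ackr3, so their order is not fixed by 3 libraries. The LPS libraries ran from Ccr1 through Ccrl2, Cxcr4, Ccr3, Cx3cr1, Ccr2 and Ccr7 to Cxcr2 and Ackr3, with overlap between Ccr2 and Ccr7 and between Cxcr2 and Ackr3. Together the 9 came to 277 ± 20.3 TPM without LPS and 79.2 ± 6.20 TPM with LPS (SD, n = 3 each). Cxcr4 made up 77.0% ± 2.17 of that sum without LPS and 7.73% ± 1.05 in LPS libraries. Ccr1 went from 5.47% ± 0.361 to 57.4% ± 2.94 and Ccrl2 from 2.59% ± 0.686 to 28.1% ± 3.76 of the sum. Shares of a sum depend on each other, so the rise of Ccr1 in share holds both its own rise and the fall of Cxcr4.

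On a list of 24 chemokine receptor genes, the 9 included, 7 were tested, of which 2 were called higher and 5 lower, where 16.3% and 59.8% of all tested genes were. Tested beside the 6 described above was Cxcr3, the receptor for CXCL9 and CXCL10. It had 11.8, 13.8 and 12.6 TPM without LPS and 0.57, 0.51 and 0.55 TPM with LPS (change −3.15, SE 0.10, limma adjusted p = 1.89e-07), so it too, like Ccr2, entered the test through the control libraries alone. The 24 genes together came to 292 ± 20.6 TPM without LPS and 81.3 ± 6.54 TPM with LPS (SD, n = 3 each). Cxcr3 held 4.35% ± 0.256 of that sum in control and 0.671% ± 0.0563 in LPS libraries.

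**Figure D4:**
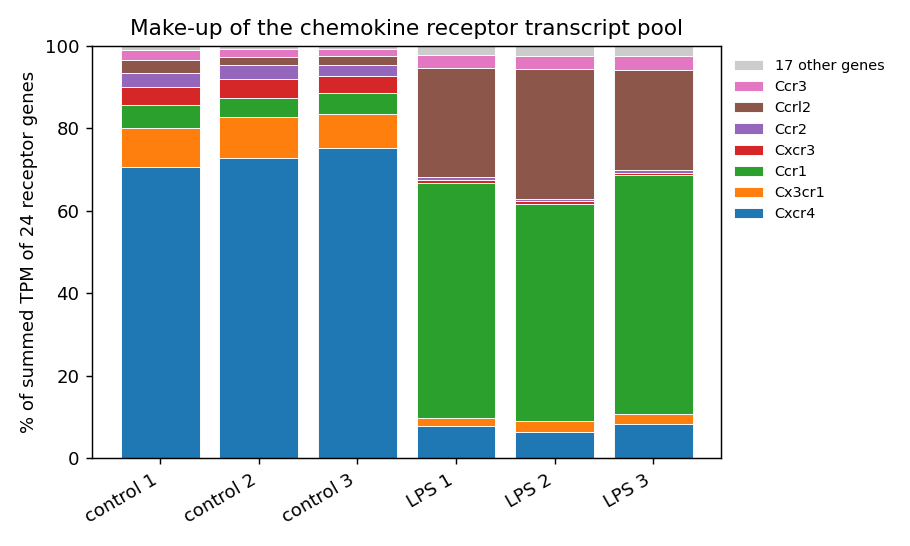
Share of each receptor gene in the summed TPM of 24 chemokine receptor genes in each of the 6 libraries, in percent. Cxcr4 fills most of each control bar, and Ccr1 and Ccrl2 fill most of each LPS bar.

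The ligand genes of these receptors mostly rose. Of 19 ligand genes 11 were tested, and 9 were called higher and 1 lower, where 16.3% and 59.8% of all tested genes were. The median change of the 11 was 4.22 and that of all tested genes −0.44. Ccl12 and Cxcl3 were under 1 TPM in every control library, so they entered the test through the LPS libraries alone and had to differ once they did. All 3 ligand genes of Ccr2 rose: Ccl2 went from 49.6 ± 1.19 to 547 ± 26.3 TPM, Ccl7 from 10.7 ± 2.83 to 253 ± 5.06 TPM and Ccl12 from 0.333 ± 0.140 to 81.5 ± 4.53 TPM (SD, n = 3 each; limma adjusted p between 1.11e-08 and 3.04e-07). The receptor thus fell while its ligand transcripts rose in the same libraries. For Ccr1, ligand and receptor transcripts rose together in 4 of 5 cases. Ccl3 had 141 ± 4.05 and 902 ± 49.4 TPM, Ccl5 6.88 ± 3.21 and 8273 ± 274 TPM, and Ccl9 369 ± 31.5 and 737 ± 51.0 TPM without and with LPS. Ccl6, the exception, fell from 115 ± 6.35 to 51.9 ± 1.57 TPM (change −1.14, SE 0.06, limma adjusted p = 1.66e-06).

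The CXC ligands of Cxcr2 rose although the receptor was barely present. Cxcl2 had 570.6 ± 67.6 TPM with LPS against 26.6 ± 4.23 TPM without it, and Cxcl1 had 64.3 ± 2.39 against 2.55 ± 0.692 TPM. Cxcl3 was listed at 0.09, 0 and 0.07 TPM without LPS and at 32.7, 33.3 and 41.1 TPM with LPS. Limma called all 3 of them higher, with adjusted p between 4.40e-08 and 2.68e-07. Ccl24, the eotaxin gene at the limit of the test, had 0.88, 0.65 and 2.21 TPM without LPS and 1.43, 1.02 and 0.36 TPM with LPS, where the groups overlapped (adjusted p = 0.591). Ccl11, the other eotaxin gene on the list, was at 0 in every library.

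**Figure D5:**
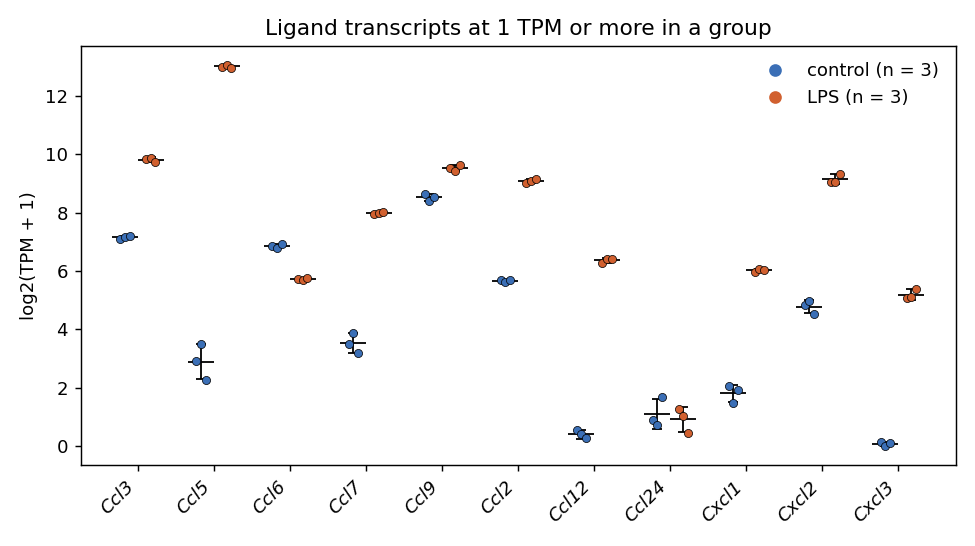
Levels of the 11 ligand transcripts that averaged at least 1 TPM in a group, as log2(TPM + 1); each point is a library, with the mean and SD of 3 libraries as lines. All but Ccl6 and Ccl24 lie higher in LPS libraries.

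Of 23 tested genes for G protein and migration signalling, 7 were called higher, 12 lower and 4 were not called, beside 16.3% and 59.8% of all tested genes. After median-of-ratios scaling 12 were called higher and 9 lower, beside 33.5% and 33.6%. The share called lower thus lay near that of all genes before scaling. The share called higher lay above that of all genes before and after scaling, and the list as a whole was not tested. In TPM as deposited the list had a median change of −0.24. The largest rises were in Rac2, a GTPase of leukocyte movement, with 291, 165 and 162 TPM without LPS and 633, 659 and 663 TPM with LPS (limma adjusted p = 0.000217), in Pik3r6, a regulatory subunit of PI3K gamma, from 13.9 ± 1.20 to 31.4 ± 2.17 TPM, and in the G protein subunit gene Gng12 from 86.6 ± 5.51 to 183 ± 5.44 TPM. Control library 1 of Rac2 stood above its fellows and still well below the LPS libraries. The largest falls were in Gnb4, a G protein beta subunit, from 8.88 ± 0.476 to 2.35 ± 0.654 TPM, in Elmo1, a partner of DOCK2 in Rac activation, from 52.8 ± 5.46 to 23.8 ± 0.685 TPM, and in the Rac activator Tiam1 from 12.9 ± 0.700 to 6.0 ± 1.23 TPM.

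For genes that end receptor signals, the share called lower was near that of all tested genes in TPM as deposited. Of 15 tested members 1 was called higher, 9 lower and 5 were not called, against 16.3% of all tested genes higher and 59.8% lower. After median-of-ratios scaling 5 were called higher and 7 lower, beside 33.5% and 33.6% of all tested genes. There the share called lower lay above that of all genes. In TPM as deposited the list's median change of −0.65 compares with −0.44 for all tested genes. The largest falls were in RGS genes, whose proteins speed the return of G proteins to rest. Rgs2 had 80.3, 77.2 and 80.9 TPM without LPS and 5.21, 4.08 and 3.80 TPM with LPS (change −3.92, SE 0.10, limma adjusted p = 7.87e-08). Rgs12 went from 9.80 ± 0.436 to 0.917 ± 0.241 TPM and Rgs10, which is abundant in macrophages and microglia, from 347 ± 13.2 to 77.2 ± 1.31 TPM. Rgs14 was the gene called higher, from 23.9 ± 1.46 to 31.1 ± 0.504 TPM (adjusted p = 0.00125). The receptor kinase gene Grk2 and the arrestin gene Arrb2 had 216 and 445 TPM without LPS and 225 and 421 TPM with LPS and were not called (adjusted p = 0.425 and 0.148).

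By Euclidean distance of log2(TPM + 1) over the 6 libraries, the named gene nearest to each tested receptor was Hk2 for Ccr1 (distance 0.323), Padi2 for Ccr2 (0.196), Zfp251 for Ccr3 (0.192), Parvg for Ccrl2 (0.322), Cdc45 for Cx3cr1 (0.141) and Mrc1 for Cxcr4 (0.571). Such a gene is only the nearest of those compared and need not match the receptor's level in each library. Mrc1, for example, had 172 TPM without LPS and 6.42 TPM with LPS against 213 and 6.16 TPM for Cxcr4.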

How the data were processed

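RNA sequencing libraries of mouse bone marrow-derived macrophages, 3 control and 3 LPS, were analysed from the table of the whole series. The authors deposited TPM with 2 decimals, and every library reaches the common TPM total within 0.75 TPM. Bowtie 0.12.2 and the builds mm8 and mm9 appear, without a role, per the submitters' processing notes. The tool behind TPM, its annotation and its handling of strand were not given in the sources used here. The file header also holds gene length in bases, which was not used as a measurement. TPM keeps no depth, so no counting error or detection limit is given, and an exact 0 can be a failed estimate.

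Genes that reached 1 TPM in 3 or more libraries (12440 of 55736) were tested with limma 3.58.1 in R 4.3.3 (lmFit, eBayes with trend) on log2(TPM + 1), which understates changes of low genes. P-values are two-sided, adjusted by Benjamini-Hochberg over all tested genes, with a limit of 0.05. Ccr7, Cxcr2, and other genes under the filter were taken from the same fit over all 23958 genes above 0. P-values measure the spread between libraries only, which may be technical. The test was checked on simulated data with known changes in few genes, up or down at random. Such data lack the shift over most genes seen here, so the check does not cover it. Single values and sums were compared by exact permutation over libraries. The members and lists were chosen with earlier results of these data known. Named are the 9 receptors, family and ligand genes of at least 1 TPM in a group, the 3 largest called rises and falls of the 2 signalling lists, the nearest gene by profile, and other cell types' markers above 10 TPM. Genes named outside that rule were chosen after their values were seen. Alternatives were pseudocounts of 0.1 and 0.5, other filters, 3 scalings, leaving out Saa3 and Fth1, eBayes without trend, a replicate block and leaving out each library. Positions come from GENCODE M21 (GRCm38) by gene identifier. Some genes of the lists are not reported here.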

Additional observations from a re-analysis of the deposited data

How the results depend on the processing

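The changes of the 6 tested receptors kept direction and call under all 16 alternatives each, from 1.43 to 2.00 for Ccr1, 1.43 to 2.04 for Ccrl2, −3.99 to −2.23 for Ccr2, −3.78 to −2.75 for Cx3cr1, −5.11 to −4.45 for Cxcr4 and −1.10 to −0.29 for Ccr3, whose largest adjusted p was 0.0477. In most alternatives Ccr2 entered through the control libraries alone, so its kept direction adds no support. Leaving out single libraries gave between 1899 and 2012 genes called higher and between 7051 and 7260 called lower, with 2 and 4 of the receptors each time. Genes called higher went from 2028 to 4167 with median-of-ratios scaling, 3543 with upper-quartile scaling and 4029 with quantile normalization, and those called lower from 7441 to 4181, 4875 and 4257. With no filter on low values 4 of 21 receptor family genes were called higher, beside 8.85% of all 23958 genes. In that fit 2 of 17 ligand genes were called lower, beside 7849 of all genes. Of 23 signalling genes 12 were called higher under both median-of-ratios and upper-quartile scaling, where 4167 and 3543 of all genes were. Of 15 desensitization genes 5 were called higher under each of these scalings and 2 under quantile normalization, where 4029 of all genes were. Without Saa3 and Fth1 it was 4, where 2938 of all genes were, and between 1 and 2 when single libraries were left out. Ccl24, never called, turned to 0.049 after median-of-ratios scaling, 0.25 under quantile normalization, and ranged from −0.38 to 0.10 without single libraries, above 0 without control library 3 (0.096) or LPS library 3 (0.042). The cause of these shifts was not tested. Same-numbered control and LPS libraries did not deviate together (correlations 0.074, −0.151 and 0.076), not every library correlated best with its own number, and a replicate block called 1993 genes higher and 7304 lower and changed no call of the 9 receptors. TPM gives no depth, so values under 1 TPM, those of Ccr7, Cxcr2 and Ackr3 among them, have an unknown counting error.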

Other observations

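Some further chemokine receptor genes, chosen after their values were seen, stayed under 1 TPM in every library. Xcr1, known from cross-presenting dendritic cells, had 0.07, 0.02 and 0.05 TPM without LPS and 0.30, 0.14 and 0.22 TPM with LPS. Ccr9, a gut-homing receptor, had 0.03, 0.04 and 0.13 TPM without LPS and 0.19, 0.18 and 0.56 TPM with LPS. Ccr10 had 0.85, 0.58 and 0.54 TPM without LPS and 0.23, 0.29 and 0.20 TPM with LPS. The groups did not overlap for these 3 or for Ccr1l1. They overlapped for Ccr4, Ccr6, Cxcr1, Cxcr5, Cxcr6, Ackr1, Ackr4 and Pitpnm3, also under 1 TPM in every library. How often groups do not overlap among all genes under the filter was not worked out. In the limma fit of all genes above 0, Xcr1 was called higher (adjusted p = 0.0241) and Ccr10 lower (adjusted p = 0.0122), and Ccr9 was not called (adjusted p = 0.119). Ccr8 and Ackr2 were at 0 in every library, as Ackr3 was.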
